A study of Drosophila melanogaster with 9 samples.

Results

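The genes described are 10 that act in the choice of sensory organ precursors in the fly: the proneural genes ac (achaete) and sc (scute), the zinc finger gene sens (senseless), and 7 genes of the E(spl) complex, namely E(spl)m4-BFM, E(spl)malpha-BFM, E(spl)mbeta-HLH, E(spl)mgamma-HLH, E(spl)m3-HLH, E(spl)m7-HLH and E(spl)m8-HLH. They were taken by FlyBase symbol from 15682 genes in the deposited table, and all 10 were found. Levels are RPKM, reads scaled to gene length and library depth. Genes averaging 1 RPKM or more across the 9 libraries entered the tests, 7437 in all, and the 10 were among them.

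Proneural genes encode basic helix-loop-helix activators that give clusters of ectodermal cells the potential to form a sensory organ. Notch signalling between the cells of a cluster then singles out 1 precursor, in part by switching on genes of the E(spl) complex in the neighbours. The HLH genes of this complex encode repressors that bind DNA and recruit Groucho. The BFM genes encode small proteins of the Bearded family, which interfere with Neuralized, the ubiquitin ligase that activates Notch ligands. In the wing disc, sensory organ precursors arise along the wing margin, on the future veins and in the notum, and E(spl) genes are also active in parts of the pouch where no sensory organs form.

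The libraries came from wing discs of male Drosophila melanogaster larvae at the wandering stage of the third instar, raised at 25 °C. Discs were taken in pools of 30, and the nota were cut off, so that the tissue was mainly the wing pouch and hinge. Larvae labelled CR32027-IR1 had fathers from the hairpin stock VDRC 26860, larvae labelled CR32027-IR2 had fathers from the hairpin stock VDRC 103512, and OreR larvae had fathers of the wild-type strain OreR, which carries no hairpin. Mothers were the same in all 3 groups, w1118, Bx-GAL4; UAS-dicer2 (Bloomington 25706), so the control larvae also carried the driver and the extra Dicer-2. Bx-GAL4, also called MS1096-GAL4, is a driver of the wing pouch. Sons receive their X chromosome from the mother, so the copies of ac and sc, which are X-linked, came from the driver stock in every group. Each group had 3 libraries. The labels do not tell whether the 3 were independent crosses. The p-values below therefore gauge variation among libraries that could be purely technical.

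The hairpins target the noncoding RNA CR32027, whose level was checked first. It had 4.46, 3.34 and 2.93 RPKM in libraries labelled CR32027-IR1, 0.408, 1.12 and 1.19 RPKM in CR32027-IR2 and 2.38, 3.3 and 2.53 RPKM in OreR. It was therefore lower than OreR in CR32027-IR2 (log2 difference -0.99; limma, adjusted p = 0.0171) and not in libraries labelled CR32027-IR1 (0.29; adjusted p = 0.348). Without OreR replicate 2 the CR32027-IR2 difference was -0.89 and did not pass (adjusted p = 0.0778). Directions given for the libraries labelled CR32027-IR1 rest on that label alone. Library depths ranged from 25070343 to 36512316 reads. The 4 pouch markers analysed, nub, vg, Dll and dve, summed to 35.1 to 37.7 RPKM in libraries labelled CR32027-IR1, to 39.6 to 41.2 RPKM in CR32027-IR2 and to 41.1 to 42.6 RPKM in OreR. The 8 notum markers summed to 19.1 to 23.4 RPKM, 19.7 to 22.1 RPKM and 17.6 to 20.7 RPKM in the same order, mostly from ara, caup, toe and eyg. The defining notum genes pnr, tup, B-H1 and B-H2 were each at or under 0.0567 RPKM on average in every genotype. Of 7 markers of the myoblasts under the notum only kon averaged 1 RPKM or more, and the list summed to 1.43 to 3.22 RPKM, 2.27 to 2.47 RPKM and 2.09 to 2.51 RPKM. For most genes with introns RPKM was scaled to the genomic span, which gives long genes low values. Mef2 averaged under 1 RPKM but had 3100, 3821 and 3660 reads in the same order, beside 1603, 1673 and 1620 for kon. In that order of genotypes, 5 neuronal markers summed to 3.43 to 3.67, 3.62 to 3.83 and 3.75 to 4.04 RPKM. Most of this was elav, which averaged 3.34, 3.4 and 3.54 RPKM, while nSyb, Syt1, futsch and brp each averaged 0.205 RPKM or less. In the same order, 4 glial markers summed to 36.1 to 39.7, 36.5 to 40.4 and 26.2 to 29.2 RPKM, 5 hemocyte markers to 1.06 to 8.41, 3.32 to 6.61 and 4.29 to 8.75 RPKM, and 2 tracheal markers to 107 to 136, 126 to 139 and 123 to 145 RPKM. Nearly all of the tracheal sum was vvl, and how much of the vvl RNA came from trachea was not tested. The tracheal regulator gene trh was lower in both hairpin genotypes, at 3.48 ± 0.376 RPKM in libraries labelled CR32027-IR1 (limma, adjusted p = 0.0117), 3.65 ± 0.103 RPKM in CR32027-IR2 (adjusted p = 0.0427) and 4.87 ± 0.342 RPKM in OreR. The glial sums stood higher in both hairpin genotypes than in OreR, through nrv2 and, in CR32027-IR2, also moody, while repo, the defining glial gene, was near 0.

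In OreR the 10 genes covered a wide span of levels, with the HLH gene E(spl)mbeta-HLH at the top and sens at the bottom. E(spl)mbeta-HLH averaged 98.2 ± 17 RPKM and E(spl)malpha-BFM 74.2 ± 11.5 RPKM (mean ± SD of 3 libraries, as throughout), and their ranges overlapped. E(spl)m3-HLH followed at 30.9 ± 2.62 RPKM and stood apart from its neighbours in the order. E(spl)m7-HLH (18.7 ± 1.37 RPKM), E(spl)m4-BFM (16.9 ± 3.06 RPKM), sc (16.5 ± 1.11 RPKM), ac (15.8 ± 0.98 RPKM) and E(spl)m8-HLH (14.1 ± 2.49 RPKM) formed a chain in which each range overlapped the next. E(spl)mgamma-HLH at 3.85 ± 0.68 RPKM and sens at 1.84 ± 0.298 RPKM lay apart below them. The order shifted mainly through E(spl)m4-BFM, which was the 7th of the 10 in libraries labelled CR32027-IR1, the 4th in CR32027-IR2 and the 5th in OreR.

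The authors' RPKM for sens was scaled by a length of 4898 bases, the genomic span of the gene with its 3 introns, whereas its exons cover 2451 bases in the BDGP6 annotation. Scaled to exons, sens had 3.12 RPKM in libraries labelled CR32027-IR1, 3.07 RPKM in CR32027-IR2 and 3.69 RPKM in OreR, each time the lowest of the 10 by its mean. E(spl)mgamma-HLH, the next lowest, has no intron and had 3.97, 3.27 and 3.85 RPKM. Its libraries ranged from 3.02 to 3.46 RPKM in CR32027-IR2 and from 3.15 to 4.51 RPKM in OreR. The exon-scaled means of sens lay within both ranges, so on that scale sens did not stand apart there. Scaling sens to exons treats all its reads as exonic, which was not tested. The other 9 genes have 1 exon each, and the lengths used for them were 0.863 to 1.08 times the BDGP6 exon length. The 10 genes rested on 922 to 23226 reads each over the 9 libraries. The smallest single value was 69 reads for E(spl)mgamma-HLH in CR32027-IR2 replicate 3, with an exact 95% Poisson interval of 53.7 to 87.3, which covers counting error only.

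**Figure D1:**
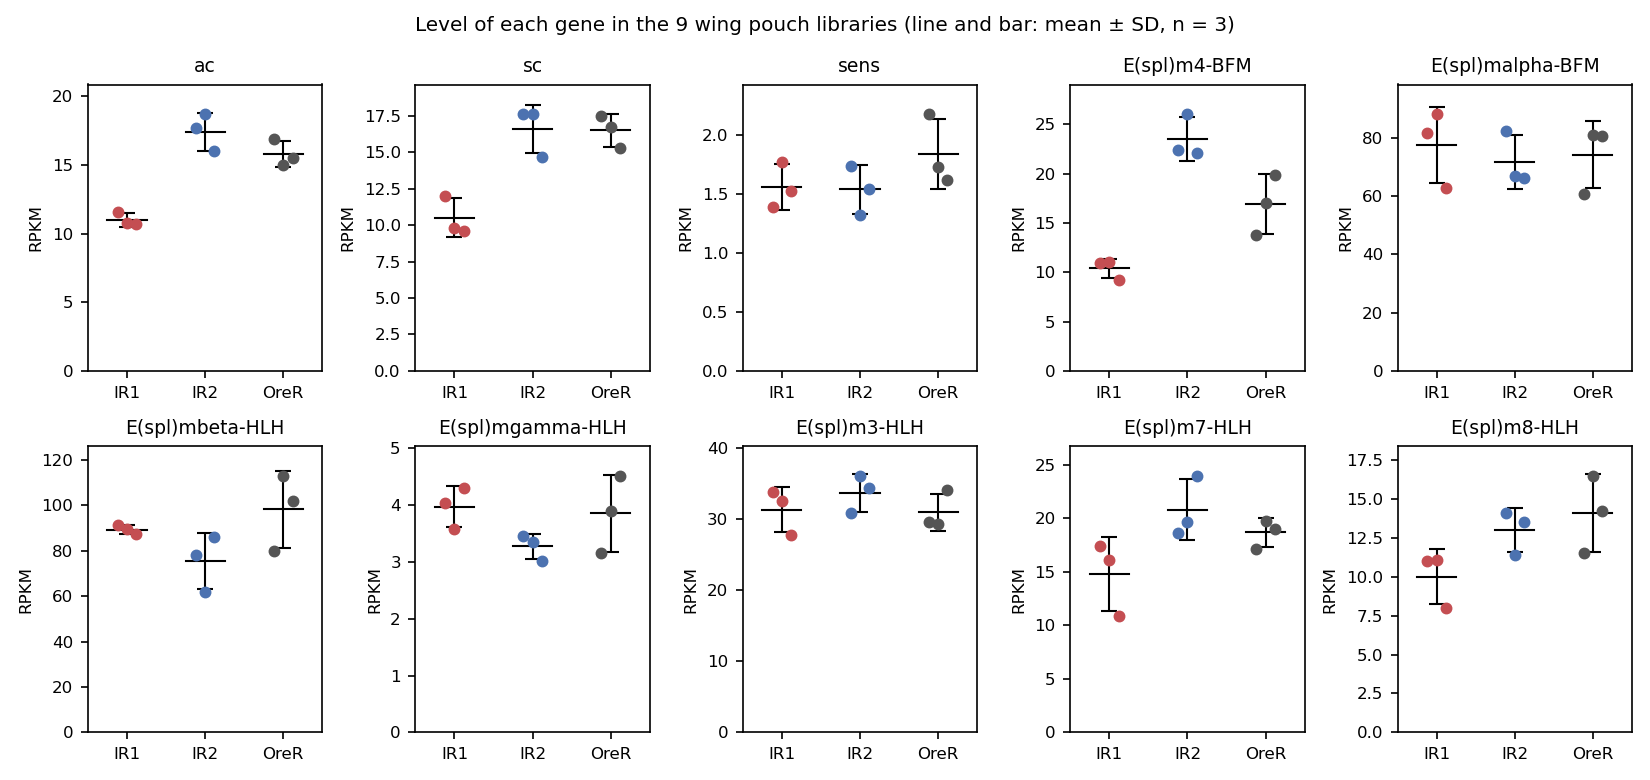
RPKM of each of the 10 genes (vertical axes, each from 0) in libraries labelled CR32027-IR1, in CR32027-IR2 and in OreR (IR1, IR2 and OreR on the horizontal axes). Points are single libraries, in replicate order from left to right, and the line and bar are the mean and SD of 3. For ac, sc, E(spl)m4-BFM and, narrowly, E(spl)m8-HLH the 3 points labelled CR32027-IR1 lie below all other points.

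The proneural genes ac and sc were lower in libraries labelled CR32027-IR1 than in OreR, and sens was not called. The achaete gene ac encodes one of the partly redundant activators of the achaete-scute complex. It had 11.6, 10.8 and 10.7 RPKM in libraries labelled CR32027-IR1, 17.7, 18.7 and 16 RPKM in CR32027-IR2, and 16.9, 15 and 15.5 RPKM in OreR. All 3 libraries labelled CR32027-IR1 lay below the other 6, while CR32027-IR2 and OreR overlapped. On the log2(RPKM + 1) scale ac fell by 0.48 ± 0.069 (SE) in libraries labelled CR32027-IR1 (95% interval -0.64 to -0.33; limma, adjusted p = 0.00268), to 69.7% of the OreR mean. In CR32027-IR2 the difference from OreR was 0.13 (95% interval -0.021 to 0.29; adjusted p = 0.358).

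The scute gene sc, the second activator of the pair, had 12, 9.82 and 9.62 RPKM in libraries labelled CR32027-IR1, 17.6, 17.6 and 14.7 RPKM in CR32027-IR2, and 17.5, 16.7 and 15.3 RPKM in OreR. As for ac, the libraries labelled CR32027-IR1 lay below the other 6, and CR32027-IR2 and OreR overlapped. It fell by 0.61 ± 0.1 in libraries labelled CR32027-IR1 (95% interval -0.83 to -0.39; limma, adjusted p = 0.00423), to 63.6% of the OreR mean. In CR32027-IR2 the difference from OreR was 0.0099 (95% interval -0.21 to 0.23; adjusted p = 0.976). The ratio of ac to sc stayed near 1 within libraries: it was 0.963 to 1.11 in libraries labelled CR32027-IR1, 1.01 to 1.08 in CR32027-IR2 and 0.897 to 1.01 in OreR. In bulk tissue, fewer cells expressing a gene and less RNA per cell cannot be told apart.

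The pouch markers nub and dve were also lower in libraries labelled CR32027-IR1 than in OreR, 2 of the 4 analysed. nub, a POU factor of the pouch, was 8.78 ± 0.322 RPKM there and 10.8 ± 0.479 RPKM in OreR (log2 difference -0.27; limma, adjusted p = 0.0213), and the homeobox gene dve was 3.4 ± 0.338 RPKM and 4.39 ± 0.165 RPKM (-0.29; adjusted p = 0.0302). They stood at 81.5% and 77.5% of the OreR mean. The remaining pouch markers, vg and Dll, stood at 91.5% and 92.9% and were not called (limma, adjusted p = 0.129 and 0.474). In this comparison 7.61% of all genes tested were called lower. In CR32027-IR2 ac and sc stood at 110% and 101% of the OreR mean and were not called. There nub and dve stood at 89.8% and 86.3% and were not called either. All CR32027-IR2 libraries lay below those of OreR for both markers, as they did for 16.6% of all genes tested. The tracheal marker trh was called lower in both hairpin genotypes, at 71.4% of the OreR mean in libraries labelled CR32027-IR1 and 75.1% in CR32027-IR2. The part of a change in tissue make-up in the lower ac and sc was not tested.

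The zinc finger gene sens is switched on in cells that become sensory organ precursors and also along the wing margin. It had 1.39, 1.77 and 1.53 RPKM in libraries labelled CR32027-IR1, 1.74, 1.32 and 1.54 RPKM in CR32027-IR2, and 2.18, 1.73 and 1.62 RPKM in OreR. The 3 genotypes overlapped. The log2 difference from OreR was -0.15 in libraries labelled CR32027-IR1 (95% interval -0.39 to 0.09; limma, adjusted p = 0.388) and -0.16 in CR32027-IR2 (95% interval -0.4 to 0.076; adjusted p = 0.478). Its means were 84.6% and 83.3% of the OreR mean, and the log2(RPKM + 1) scale understates differences at so low a level.

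Among the 2 Bearded family genes of the complex, E(spl)m4-BFM was called lower in libraries labelled CR32027-IR1 and lay above OreR, without passing, in CR32027-IR2. E(spl)malpha-BFM was called in neither. E(spl)m4-BFM had 10.9, 11 and 9.27 RPKM in libraries labelled CR32027-IR1, 22.4, 26.1 and 22.1 RPKM in CR32027-IR2, and 13.8, 17 and 19.9 RPKM in OreR. The 3 genotypes did not overlap, and OreR lay between the hairpin genotypes. E(spl)m4-BFM fell by 0.64 ± 0.12 in libraries labelled CR32027-IR1 (95% interval -0.92 to -0.37; limma, adjusted p = 0.01), to 61.4% of the OreR mean. With array weights, which give less weight to libraries that vary more, the difference was -0.67 and did not pass (adjusted p = 0.0667). In CR32027-IR2 it was 139% of the OreR mean, a log2 difference of 0.47 ± 0.12 that did not pass (95% interval 0.19 to 0.74; adjusted p = 0.0671). That difference did pass with array weights (0.48; adjusted p = 0.0176) and without OreR replicate 3 (0.59; adjusted p = 0.0269). In the other 18 of 20 alternatives it did not pass. It was 0.34 without OreR replicate 1 (limma, adjusted p = 0.162) and 0.39 without CR32027-IR2 replicate 2 (adjusted p = 0.226).

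E(spl)malpha-BFM, at about the level of E(spl)mbeta-HLH, had 81.6, 88.1 and 62.9 RPKM in libraries labelled CR32027-IR1, 82.4, 66.9 and 66.2 RPKM in CR32027-IR2, and 60.9, 80.9 and 80.8 RPKM in OreR. Its genotypes overlapped, and the log2 differences from OreR were 0.06 (95% interval -0.28 to 0.4; limma, adjusted p = 0.829) and -0.041 (95% interval -0.38 to 0.3; adjusted p = 0.937). Set against E(spl)malpha-BFM in the same library, E(spl)m4-BFM was 12.4% to 14.7% in libraries labelled CR32027-IR1, 27.2% to 39% in CR32027-IR2 and 21% to 24.6% in OreR.

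The HLH repressor genes were called in neither comparison with OreR. E(spl)m8-HLH, which encodes the repressor altered in the classical Enhancer of split allele, came nearest in libraries labelled CR32027-IR1. It had 11, 11.1 and 8.01 RPKM there, 14.1, 11.4 and 13.5 RPKM in CR32027-IR2, and 11.5, 16.5 and 14.2 RPKM in OreR. The libraries labelled CR32027-IR1 lay just below the lowest OreR library, with a log2 difference of -0.45 ± 0.15 (95% interval -0.78 to -0.12; limma, adjusted p = 0.0743). Without OreR replicate 1 it was -0.58 and passed (adjusted p = 0.0476). It did not pass in the other 19 of 20 alternatives, and was -0.31 without CR32027-IR1 replicate 3 (limma, adjusted p = 0.17). In CR32027-IR2 it was -0.1 (95% interval -0.44 to 0.23; adjusted p = 0.796).

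E(spl)m7-HLH, another repressor gene of the same end of the complex, had 17.4, 16.1 and 10.9 RPKM in libraries labelled CR32027-IR1, 18.6, 19.7 and 24 RPKM in CR32027-IR2, and 17.1, 19.8 and 19 RPKM in OreR. CR32027-IR1 replicate 3 stood well below the other libraries of that label. The log2 difference from OreR was -0.34 with that label (95% interval -0.69 to 0.013; limma, adjusted p = 0.182) and 0.14 in CR32027-IR2 (95% interval -0.21 to 0.49; adjusted p = 0.722). Without CR32027-IR1 replicate 3 the first of these was -0.15 (adjusted p = 0.402).

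E(spl)mbeta-HLH, a repressor gene expressed broadly in the pouch and known for its role in wing vein development, had 91.1, 89.4 and 87.2 RPKM in libraries labelled CR32027-IR1, 78.3, 61.7 and 86.1 RPKM in CR32027-IR2, and 79.8, 113 and 102 RPKM in OreR. Both hairpin genotypes overlapped OreR. The log2 difference was -0.12 (95% interval -0.44 to 0.19; limma, adjusted p = 0.608) in libraries labelled CR32027-IR1 and -0.38 (95% interval -0.69 to -0.062; adjusted p = 0.184) in CR32027-IR2. E(spl)m3-HLH ranged from 27.7 to 33.8 RPKM in libraries labelled CR32027-IR1, from 30.8 to 36 RPKM in CR32027-IR2 and from 29.3 to 34 RPKM in OreR, with log2 differences of 0.015 (95% interval -0.19 to 0.22; adjusted p = 0.938) and 0.12 (95% interval -0.085 to 0.32; adjusted p = 0.557). E(spl)mgamma-HLH ranged from 3.58 to 4.29 RPKM, from 3.02 to 3.46 RPKM and from 3.15 to 4.51 RPKM in the same order of genotypes, with log2 differences of 0.042 (95% interval -0.2 to 0.28; adjusted p = 0.833) and -0.18 (95% interval -0.42 to 0.066; adjusted p = 0.449).

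In the comparison of the libraries labelled CR32027-IR1 with OreR, 3 of the 10 genes were thus called lower and 0 higher, where 13.7% of all genes tested were called, 7.61% lower and 6.09% higher. An unadjusted p under 0.05 was found for 4 of the 10, and for 29.9% of all genes. The libraries did not overlap for 4 of the 10 in the lower direction and for 0 in the higher one, against 14.6% and 16.2% of all genes tested. The median log2 difference of the 10 was -0.24, beside 0.015 over all genes. ac, sc, E(spl)m4-BFM and E(spl)m8-HLH lay below -0.38, the value under which 5% of all genes lay. For CR32027-IR2 against OreR 0 of the 10 were called by limma and 2 had an unadjusted p under 0.05, E(spl)m4-BFM and E(spl)mbeta-HLH, where 5.15% of all genes were called (2.93% higher and 2.22% lower) and 18.3% had such an unadjusted p. The libraries did not overlap for 1 of the 10 in the higher direction, E(spl)m4-BFM, and for 0 in the lower one, against 11.6% and 16.6% of all genes. The median log2 difference of the 10 was -0.016 there, beside -0.022 over all genes. Limma voom, run on reads recovered from the RPKM values, also called 0 of the 10 for CR32027-IR2. Both comparisons use the same OreR libraries.

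**Figure D2:**
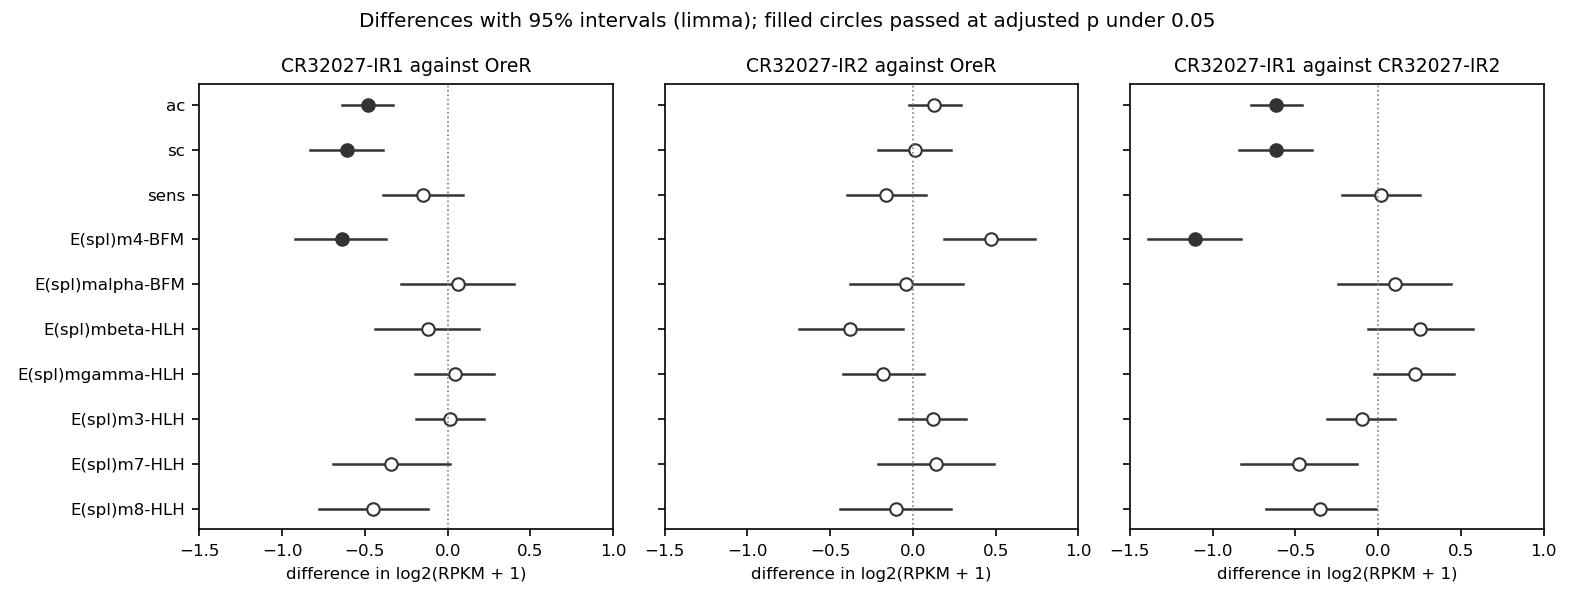
Difference in log2(RPKM + 1) of each of the 10 genes (rows) in the 3 comparisons (panels), with 95% intervals from limma. Filled circles passed at an adjusted p under 0.05: ac, sc and E(spl)m4-BFM for CR32027-IR1 against OreR, 0 genes for CR32027-IR2 against OreR, and the same 3 between the hairpin genotypes.

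Set directly against each other, the hairpin genotypes differed in the same 3 genes. This comparison uses the same libraries labelled CR32027-IR1 as the one with OreR, so its calls are not independent of those. ac was 0.62 lower (95% interval -0.77 to -0.46; limma, adjusted p = 0.000535) in libraries labelled CR32027-IR1 than in CR32027-IR2 on the log2 scale, at 63.1% of the CR32027-IR2 mean. sc was 0.62 lower as well (log2 difference -0.62, 95% interval -0.84 to -0.4; adjusted p = 0.00281), at 63% of that mean. E(spl)m4-BFM differed most, with a log2 difference of -1.11 (95% interval -1.39 to -0.83; adjusted p = 0.000535) and 44.1% of the CR32027-IR2 mean. The other 7 genes were not called. Of these, E(spl)m7-HLH was nearest, with a log2 difference of -0.48 (95% interval -0.83 to -0.13; adjusted p = 0.0553), and passed without CR32027-IR1 replicate 1 (-0.6; adjusted p = 0.0428) or replicate 2 (-0.55; adjusted p = 0.0416). Without CR32027-IR1 replicate 3 it was -0.29 (adjusted p = 0.0931), and over all libraries left out in turn it was -0.6 to -0.29. In this comparison 21.9% of all genes were called, 9.57% lower and 12.3% higher, against 3 lower and 0 higher of the 10. The libraries did not overlap for 5 of the 10 in the lower direction and for 2, E(spl)mbeta-HLH and E(spl)mgamma-HLH, in the higher one, against 16.8% and 22.5% of all genes. The median log2 difference of the 10 was -0.23, beside 0.033 over all genes.

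**Figure D3:**
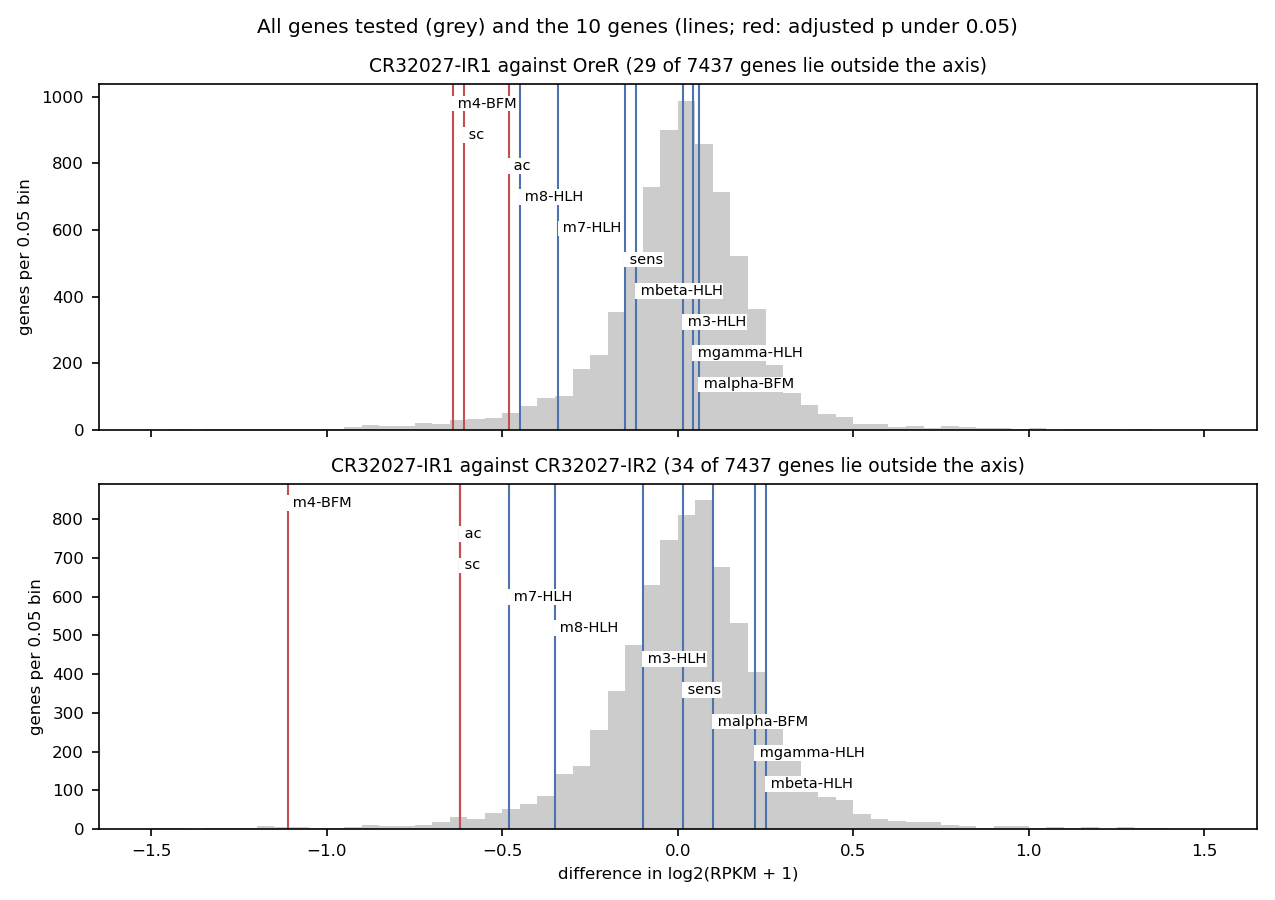
Distribution of the difference in log2(RPKM + 1) over the 7437 genes tested (grey, number of genes per bin) with the 10 genes as vertical lines, red where the adjusted p was under 0.05. ac, sc and E(spl)m4-BFM lie in the lower tail both for CR32027-IR1 against OreR and for CR32027-IR1 against CR32027-IR2. Both comparisons use the same libraries labelled CR32027-IR1.

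Some neighbouring genes along the E(spl) complex had unlike values. The 7 genes lie on chromosome arm 3R, within 41.2 kb from E(spl)mgamma-HLH to E(spl)m8-HLH in BDGP6. E(spl)m4-BFM is on the minus strand from 26023821 to 26024579, and the plus-strand gene E(spl)m3-HLH ends 693 bases before it, at 26023127. E(spl)m3-HLH differed from OreR by 0.015 on the log2 scale in libraries labelled CR32027-IR1, where E(spl)m4-BFM differed by -0.64. Among the remaining genes of the complex, E(spl)mdelta-HLH, an HLH gene at the other end, had 25.2, 19.8 and 22.4 RPKM in libraries labelled CR32027-IR1, 17, 15.9 and 17 RPKM in CR32027-IR2, and 14.2, 16 and 20.3 RPKM in OreR. The libraries labelled CR32027-IR1 lay above those of CR32027-IR2 and overlapped OreR, whose highest library exceeded their lowest. Its log2 difference was 0.4 from OreR (limma, adjusted p = 0.0571) and 0.4 from CR32027-IR2, where it passed (adjusted p = 0.043), though not when any CR32027-IR2 library, CR32027-IR1 replicate 1 or 3, or OreR replicate 2 was left out. E(spl)m2-BFM, another Bearded family gene, was 35.5 ± 5.88 RPKM, 34.4 ± 1.18 RPKM and 38.9 ± 1.15 RPKM in the same order of genotypes, and gro, which encodes the corepressor of the HLH proteins, was 41.8 ± 0.694 RPKM, 46 ± 1.11 RPKM and 44.8 ± 3.22 RPKM. Neither was called in any of the 3 comparisons. E(spl)m5-HLH, E(spl)m6-BFM and Kaz-m1, a protease inhibitor gene inside the complex, had means below 1 RPKM and were not tested. E(spl)m5-HLH, the next gene beyond E(spl)m4-BFM, averaged 0.309 ± 0.148 RPKM, 0.687 ± 0.116 RPKM and 0.6 ± 0.109 RPKM in the same order. As for E(spl)m4-BFM, its libraries labelled CR32027-IR1 lay below all others. E(spl)m6-BFM averaged 0.397, 0.271 and 0.126 RPKM, highest with that label. The noncoding RNA genes CR43643 (0.419, 0.655 and 0.777 RPKM) and CR43644 (0.324, 0.706 and 0.718 RPKM), also untested, were lowest by mean with that label.

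**Figure D4:**
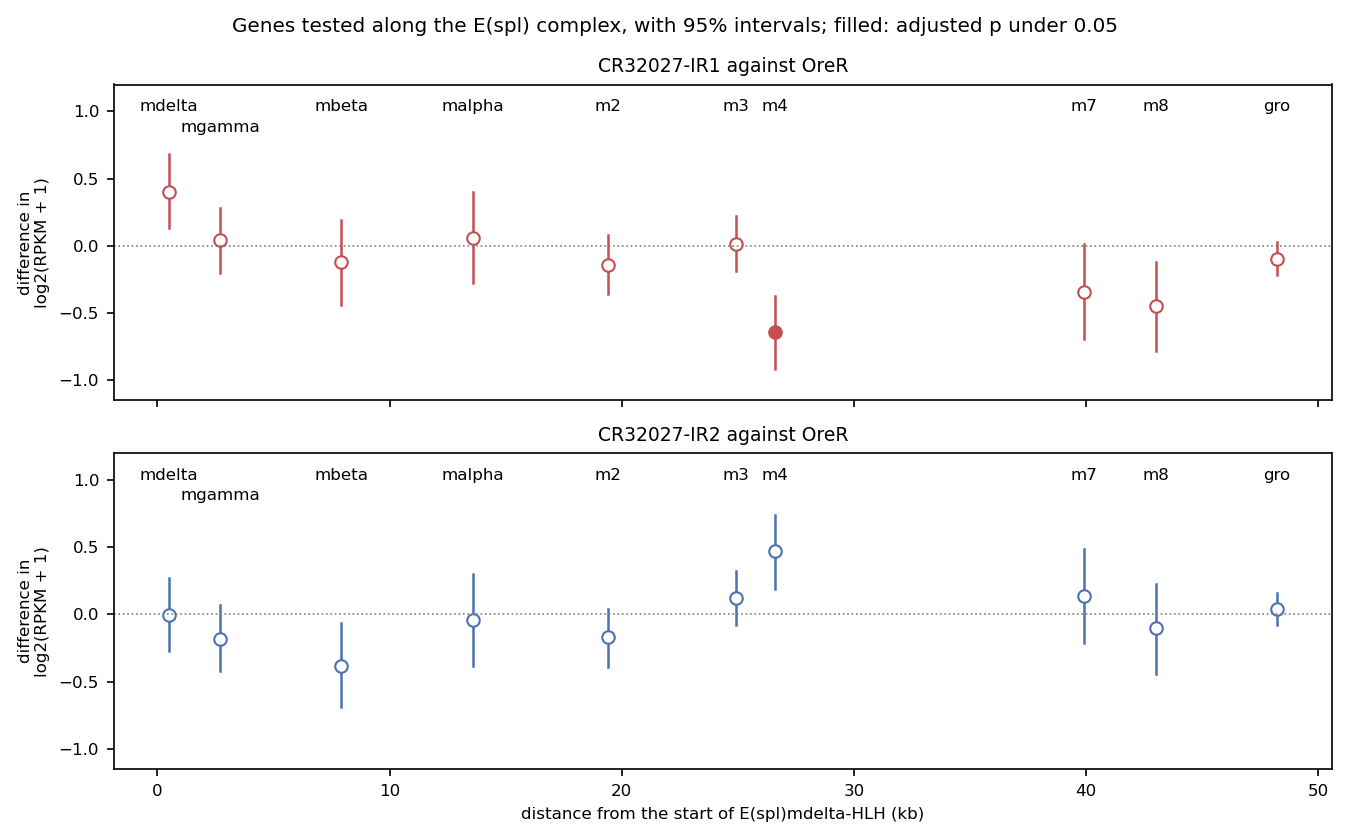
Difference in log2(RPKM + 1) from OreR, with 95% intervals (limma), for the 10 genes tested in the E(spl) complex, against distance in kb from the start of E(spl)mdelta-HLH. The upper panel shows the libraries labelled CR32027-IR1 and the lower panel CR32027-IR2. E(spl)m4-BFM, the 1 filled point, is the only gene of the 10 past an adjusted p of 0.05, while its neighbour E(spl)m3-HLH lies near 0 in the upper panel.

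The genes ac and sc lie 25.1 kb apart on the plus strand of the X chromosome, ac from 370031 to 370947 and sc from 396060 to 397497 (BDGP6). Both sit within CG32816 on the opposite strand, which averaged 0.00731 RPKM with the label CR32027-IR1, 0.0303 RPKM in CR32027-IR2 and 0.0124 RPKM in OreR. The other genes of the achaete-scute complex were too low to test. l(1)sc, another proneural gene, averaged 0.139 ± 0.0664 RPKM, 0.107 ± 0.0442 RPKM and 0.0297 ± 0.0271 RPKM in that order of genotypes, and ase, which acts in precursors and neuroblasts, 0.535 ± 0.231 RPKM, 0.733 ± 0.022 RPKM and 0.744 ± 0.018 RPKM.

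Of 9 other genes tested within 100 kb of ac and sc, 0 were called in libraries labelled CR32027-IR1 against OreR. Of all genes tested 13.7% were called there, so 0 of 9 does not set this stretch apart. In CR32027-IR2 against OreR 1 was called higher and 2 lower, beside 2.93% and 2.22% of all genes. The higher one, named after its values were seen, was CG43182, which lies 16.7 kb before ac. It was listed at 0, 0 and 0.123 RPKM with the label CR32027-IR1, at 27.7, 36 and 35.8 RPKM in CR32027-IR2 and at 0 in all 3 OreR libraries. The body colour gene y, a common marker in fly transgenes, lies between them and showed the same pattern at a low level. It was listed at 0, 0 and 0.00649 RPKM with the label CR32027-IR1, at 0.353, 0.371 and 0.371 RPKM in CR32027-IR2, and at 0 in all 3 OreR libraries. Whether the y and CG43182 reads came from the X-linked locus or from a transgene was not tested. ac, 8.79 kb beyond y, was not called in CR32027-IR2.

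Of 31 listed genes around the 10 that could be tested, each counted once where lists share it, 1 was called for CR32027-IR1 against OreR, 0 for CR32027-IR2 against OreR and 4 between the hairpin genotypes, where 13.7%, 5.15% and 21.9% of all genes were called. These lists were chosen with earlier results of these data known. In the list of proneural partners and regulators 5 of 11 genes in the table could be tested (emc, which sequesters proneural proteins, the Iroquois genes ara, caup and mirr, and chn), and 0 were called in any comparison. Their median log2 differences were 0.18 in libraries labelled CR32027-IR1 against OreR, 0.15 in CR32027-IR2 against OreR and 0.038 between the hairpin genotypes. Of the sensory organ precursor genes 7 of 13 could be tested, among them neur and sca, and 0 were called, with medians of -0.05, -0.1 and 0.013. phyl, a proneural target in precursors, averaged 0.45 ± 0.0692 RPKM in libraries labelled CR32027-IR1, 0.495 ± 0.113 RPKM in CR32027-IR2 and 0.506 ± 0.128 RPKM in OreR and was not tested.

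In the list of other E(spl) complex and Bearded family genes 6 of 9 could be tested. None was called against OreR by limma in either hairpin genotype, and E(spl)mdelta-HLH and the Bearded family gene Ocho were higher in libraries labelled CR32027-IR1 than in CR32027-IR2. Between the hairpin genotypes 21.9% of all genes tested were called. Ocho was 11.5 ± 0.97 RPKM with the first label, 8.59 ± 0.903 RPKM in CR32027-IR2 and 10.1 ± 1.18 RPKM in OreR (log2 difference 0.39 between the hairpin genotypes; adjusted p = 0.021). Tom, the most abundant Bearded family gene, averaged 166 ± 16.3 RPKM, 158 ± 3.63 RPKM and 158 ± 16.6 RPKM in libraries labelled CR32027-IR1, in CR32027-IR2 and in OreR.

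Of 17 genes of the Notch signalling machinery, all of them tested, pen-2 was called higher in libraries labelled CR32027-IR1. It encodes a subunit of gamma-secretase, the protease that releases the Notch intracellular domain. pen-2 had 42.6, 43.3 and 42 RPKM there, 31.1, 31.9 and 32.4 RPKM in CR32027-IR2, and 34.1, 32.7 and 33.3 RPKM in OreR. The libraries labelled CR32027-IR1 lay above the other 6 (log2 difference from OreR 0.34; limma, adjusted p = 0.00106; from CR32027-IR2 0.41; adjusted p = 0.000265). aph-1, another gamma-secretase subunit gene, was 49.6 ± 0.988 RPKM, 42.4 ± 2.02 RPKM and 45.8 ± 2.15 RPKM in the same order and was higher in libraries labelled CR32027-IR1 than in CR32027-IR2 (0.22; adjusted p = 0.0154). The receptor gene N averaged 19.6 ± 2.36 RPKM, 21.3 ± 0.946 RPKM and 21.4 ± 0.546 RPKM, and Su(H), the transcription factor that acts with it at E(spl) genes, 8.94 ± 0.536 RPKM, 9.06 ± 0.267 RPKM and 9.49 ± 0.367 RPKM. Neither was called in any comparison. In CR32027-IR2 against OreR 0 of the 17 were called, where 5.15% of all genes tested were called. For CR32027-IR1 against OreR it was 1 of the 17, beside 13.7% of all genes. Between the hairpin genotypes it was 2 of the 17, beside 21.9%.

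Genes whose values over the 9 libraries were most like those of ac, sc and E(spl)m4-BFM were listed by the root mean square distance between log2(RPKM + 1) values, each centred on the gene's own mean, among 7436 other genes. The nearest to ac were Ssb-c31a (0.065), AP-1mu (0.069) and bsk (0.085), and sc ranked 5 at 0.09. The nearest to sc were unc-13 (0.089), CG9581 (0.089) and ac (0.09). Those of E(spl)m4-BFM were farther off, at 0.16 for flap and 0.21 for path, with ac at rank 25 and sc at rank 49. E(spl)malpha-BFM, of the same family, was at rank 4297 for E(spl)m4-BFM. bsk, the Jun kinase gene, was 25.4 ± 0.364 RPKM in libraries labelled CR32027-IR1, 35.7 ± 1.97 RPKM in CR32027-IR2 and 33.6 ± 1.14 RPKM in OreR.

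In 2 of the 9 libraries at least 6 of the 7 E(spl) genes described lay below the mean of their genotype. OreR replicate 1 was below the OreR mean for all 7 E(spl) genes described and was the lowest of the 3 OreR libraries for 6 of them, with a median deviation of -0.25 on the log2 scale beside -0.0094 over all genes. CR32027-IR1 replicate 3 was below its mean for 6 of the 7 and the lowest for 6, with a median deviation of -0.17 beside 0.019 over all genes. That library was the lowest of its 3 for 35.4% of all genes, and OreR replicate 1 for 38.4%. In CR32027-IR2 the genes were mixed, with 3, 4 and 3 of the 7 below the mean and median deviations of 0.062, -0.066 and 0.029. Whether the E(spl) genes vary together was not tested. The pooled SD on the log2 scale was 0.18 to 0.23 for E(spl)m4-BFM, E(spl)malpha-BFM, E(spl)mbeta-HLH, E(spl)m7-HLH and E(spl)m8-HLH, larger than that of at least 88.4% of all genes, and 0.13 to 0.14 for sc, sens, E(spl)m3-HLH and E(spl)mgamma-HLH, larger than that of 74.9% to 80.2%. It was 0.086 for ac, larger than that of 45.8%. Without OreR replicate 1 the log2 difference of E(spl)m4-BFM for CR32027-IR1 against OreR was -0.77 (limma, adjusted p = 0.00565), and without CR32027-IR1 replicate 3 it was -0.57 (adjusted p = 0.0301). The HLH genes of the complex are paralogs, and the sources used here do not say how reads shared between paralogs were counted.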

How the data were processed

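Per the labels' protocols, 100 ng of RNA went into each stranded poly(A) library. CASAVA 1.8.2, TopHat2 and build dm3 are named without role or order in the submitters' processing notes; for the read counter, annotation and strand setting, the sources used here give nothing. Deposited by the authors was 1 RPKM value per gene and library. Symbols (15002 of 15682 genes) and all coordinates come from the BDGP6 annotation, a later build than dm3, and none were converted.

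Within a library, values stepped by what 1 read is worth, which gave the depths. All of 10439 genes examined had a length that turned their values into whole reads (tolerance 0.01 read); among 8596 with introns, 77.5% of lengths matched the genomic span to 2%.

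On log2(RPKM + 1), limma 3.58.1 (R 4.3.3, trend by intensity) used all 9 libraries and the 7437 genes averaging 1 RPKM or more, leaving 6 residual degrees of freedom. Fold changes on this scale understate changes of low genes. Benjamini-Hochberg adjustment ran over all genes, with calls under 0.05. The exact permutation p of 3 libraries against 3 cannot go below 0.1, so it is not given for single genes. Alternatives changed the filter, the pseudocount, the scaling, the trend, the thresholds or the libraries fitted, or used array weights, a replicate block, voom on recovered reads or 1 library fewer.

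The members and lists were chosen with earlier results of these data known. Named are the 10 genes, CR32027, up to 4 called genes per list and comparison, and the 3 genes nearest in pattern to each member called against OreR (1 of these is not reported here); other names are for background or position, or are said to have been chosen after their values were seen. Genes of the lists with no row in the table (such as da and Dl) were not analysed here. No sequence was used. Annotation, read recovery and figures used Python 3.11.15 (scipy 1.17.1, pandas 2.3.3, numpy 2.4.6, matplotlib 3.10.9).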

Additional observations from a re-analysis of the deposited data

Results flagged for a closer look

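The results below differed between the 2 hairpin genotypes in the direct limma test, so their differences from the shared OreR libraries differed too. The genotypes also differ in paternal stock, and no test ties these differences to the hairpins. ac had a log2 difference of -0.62 (libraries labelled CR32027-IR1 minus CR32027-IR2; adjusted p = 0.000535), sc of -0.62 (adjusted p = 0.00281) and E(spl)m4-BFM of -1.11 (adjusted p = 0.000535). For E(spl)m4-BFM all 3 libraries labelled CR32027-IR1 lay below OreR and all 3 CR32027-IR2 libraries above it. Among the genes listed around them, E(spl)mdelta-HLH differed by 0.4 (adjusted p = 0.043), Ocho by 0.39 (adjusted p = 0.021), aph-1 by 0.22 (adjusted p = 0.0154) and pen-2 by 0.41 (adjusted p = 0.000265). In this comparison 21.9% of all genes tested were called.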

How the results depend on the processing

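Of 594 values of the 10 genes under 20 alternatives, 565 kept their direction and side of the threshold. Of the others, 1 was no longer past it, 7 were newly past it and 21 changed sign. In the fit reported, 0 of the 21 belonged to a gene in a comparison where it was called. sc changed sign only for CR32027-IR2 against OreR, where it was not called. ac and sc were called lower in the libraries labelled CR32027-IR1 against OreR and against CR32027-IR2 in every alternative run, with log2 differences against OreR of -0.52 to -0.44 and -0.71 to -0.56. The number of the 10 called was 2 to 4 for CR32027-IR1 against OreR and 3 to 4 between the hairpin genotypes (3 to 4 in both when each library was left out). For CR32027-IR2 against OreR it was 1 in place of 0 with array weights or at an adjusted p under 0.1, and 0 to 1 when each library was left out.

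The sign changes were of values near 0. For CR32027-IR1 against OreR, leaving out 1 library gave -0.074 to 0.2 for E(spl)malpha-BFM, -0.066 to 0.14 for E(spl)mgamma-HLH and -0.041 to 0.1 for E(spl)m3-HLH, and array weights gave -0.014 for E(spl)m3-HLH. For CR32027-IR2 against OreR it gave -0.04 to 0.09 for sc, -0.18 to 0.026 for E(spl)malpha-BFM and -0.23 to 0.012 for E(spl)m8-HLH. Between the hairpin genotypes sens was -0.005 with quantile normalization, -0.0025 with median centring and -0.047 to 0.073 when each library was left out.

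Of the 31 listed genes tested, 1 was called for CR32027-IR1 against OreR, and 2 with a mean of at least 5 RPKM, quantile normalization, median centring or voom, 3 at an adjusted p under 0.1 and 1 to 3 when each library was left out. For CR32027-IR2 against OreR 1 was called in place of 0 with quantile normalization or array weights. Between the hairpin genotypes 4 were called, 1 with array weights or at an adjusted p under 0.01, and 2 to 5 when each library was left out; pen-2 kept its call throughout, and Ocho was not called without CR32027-IR1 replicate 3 or CR32027-IR2 replicate 1 or 2, nor aph-1 without CR32027-IR2 replicate 2 or 3. The CR32027 difference in CR32027-IR2 was -0.99, and -1.78 with voom, -1.6 and -1.25 with pseudocounts of 0.1 and 0.5, and -1.1 to -0.79 when each library was left out, alternatives chosen after seeing the data. The count of all genes called in CR32027-IR1 against OreR was 1019, and 371 with array weights, 1577 and 375 at an adjusted p under 0.1 and 0.01, 612 with only these genotypes fitted, 565 with the replicate block and 485 to 1320 when each library was left out; in CR32027-IR2 against OreR it was 383, and 972 with array weights, 591 and 156 at those thresholds, 222 with the replicate block and 187 to 504 when each library was left out; between the hairpin genotypes it was 1625, 706 with array weights, 663 at an adjusted p under 0.01 and 970 to 2159 when each library was left out. Replicate numbers did not pair the libraries (correlations of same-numbered libraries -0.237 to 0.116), and the replicate block called 3, 0 and 3 of the 10. Depth limits E(spl)mgamma-HLH most, at 69 reads in its lowest library.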
